A study of Mus musculus with 6 samples.

Results

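The records described here were the new long non-coding RNAs (lncRNAs) whose deposited sequence was 550 nt or shorter. They numbered 453 of the 8040 records deposited for the series, and the remaining 7587 longer records, of up to 10118 nt, served for comparison. The study examined the cortex of wild-type C57BL/6 mice (adult males, C57BL/6 J in the study's methods) after subarachnoid haemorrhage (SAH), a bleed into the fluid-filled space around the brain. The SAH group of 3 libraries came from mice 24 h after the endovascular perforation that causes the bleed, and the control group of 3 libraries, which the labels call normal, came from mice operated in the same way without perforation. Both groups carried the same genotype, and each library pooled the lysates of 3 mice. The deposited records hold, for each assembled transcript, its sequence as RNA, a predicted secondary structure and the free energy of that structure. They are pooled over all 6 libraries and carry no value for any library, so no difference between SAH and control could be computed for these transcripts, and the read depth behind each of them is unknown.

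Long non-coding RNAs are transcripts longer than the small RNAs and without a known protein product. Short ones may be complete RNAs, fragments of longer transcripts, or transcripts that run across a promoter, a repeat or a gene for a small structured RNA such as a tRNA. CpG dinucleotides are rare in most of the mouse genome, because methylated cytosine is lost by deamination, and are kept at many promoters. Pairing of bases within the RNA, measured by the folding free energy, becomes stronger with GC content. All values below describe these deposited sequences. Intervals are 95% intervals over records, and since records are not replicates of a condition and some of them overlap, the intervals cover only the spread or the counting error over records.

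The short records had a mean length of 445 ± 81.1 nt (SD, n = 453) and a median of 460 nt. The shortest, TCONS_00058546, had 205 nt, and the next 4 were TCONS_00121167 with 211 nt, TCONS_00248171 with 213 nt, TCONS_00186491 with 221 nt and TCONS_00179408 with 223 nt. Most records lay close to the limit. There were 10 records of 201 to 250 nt, 22 of 251 to 300 nt, 31 of 301 to 350 nt, 51 of 351 to 400 nt, 89 of 401 to 450 nt, 113 of 451 to 500 nt and 137 of 501 to 550 nt. Numbers went on rising past the limit, with 160 records in the next 50 nt, so the limit cut a continuous distribution. TCONS_00243855 and TCONS_00007813, both of 550 nt, were the last records inside it, with GC contents of 38.2% and 39.1% and free energies of -131.84 and -149.4 kcal/mol. The 5 records just outside it, longer by 1 nt, were TCONS_00217349, TCONS_00210081, TCONS_00247239, TCONS_00086445 and TCONS_00208115, with GC contents between 28.5% and 47.0%.

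**Figure D1:**
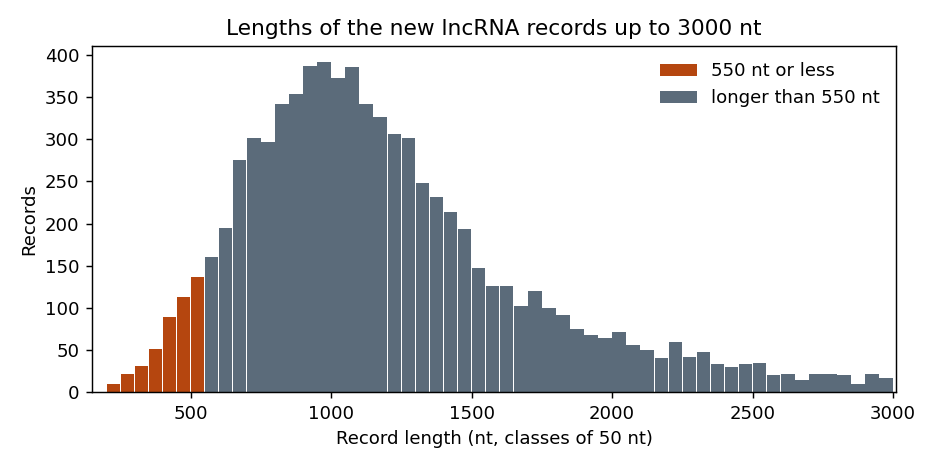
Number of new lncRNA records (vertical axis) in classes of 50 nt of record length (horizontal axis, up to 3000 nt), with the 453 records of 550 nt or less in orange and longer records in grey. The classes rise from 10 records at 201 to 250 nt to 137 at 501 to 550 nt and continue upwards without a break at the limit.

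The shortest record is printed whole, with the 56 bases in capitals that it shared with the complement of another short record, TCONS_00036442 (490 nt).
TCONS_00058546: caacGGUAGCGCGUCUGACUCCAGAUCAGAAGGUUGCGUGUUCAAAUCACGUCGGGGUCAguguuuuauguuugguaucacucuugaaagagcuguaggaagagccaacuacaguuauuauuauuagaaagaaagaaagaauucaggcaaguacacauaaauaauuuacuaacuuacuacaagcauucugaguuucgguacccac
These 56 bases, positions 5 to 60, lie near the given 5′ end. They were the only stretch of 50 or more bases that TCONS_00058546 had in common with any other record. The record had a GC content of 40%, 7 CpG dinucleotides, a free energy of -45.6 kcal/mol and 57.6% of its bases paired in the deposited structure. Inside the shared stretch stands GUUCAAAUC, which has the form of the T-loop of tRNAs. This loop lies towards the 3′ end of a tRNA, and the same bases in the tRNA gene form part of its internal promoter.

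After this sequence and others had been seen, all records were searched for a stricter form of the tRNA T-arm. The motif was GUUCNANNC with 4 bases on each side that can pair with each other by Watson-Crick pairs, on either strand, which makes 17 nt in all. It occurred in 11 of the 453 short records (2.43%, Wilson interval 1.36% to 4.30%) and in 51 of the 7587 longer records (0.672%, 0.512% to 0.883%). The difference was 1.76 percentage points (Newcombe interval 0.668 to 3.63). Per base the contrast was wider, with 12 matches in 0.201 Mb of short records, or 59.6 per Mb (exact Poisson interval 30.8 to 104), against 52 matches in 10.3 Mb of longer records, or 5.07 per Mb (3.79 to 6.65). Among RefSeq promoter windows of 300 bases, 68 of 32851 held the motif (0.207%), or 6.90 matches per Mb (5.36 to 8.75). TCONS_00058546 itself was not counted, because the bases flanking its loop do not all form Watson-Crick pairs. Looser searches with no condition on the flanks, counted as shares of whole records, went in opposite directions. GUUCGANUC alone was more frequent in short records, by 1.55 percentage points (0.523 to 3.36), and GUUCAANUC alone was less frequent, by -2.58 percentage points (-4.13 to -0.294). Longer records have more room for a short motif, and neither rates per base nor equal stretches were computed for these looser forms.

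Of the 11 records, 3 carried the motif on the given strand, 7 on the complement and 1 on both. They are the records on which this result rests, so the region from 48 bases before the motif to 10 bases after it is printed for 8 of them, on the strand that holds the motif and with the 17 nt of the T-arm in capitals. TCONS_00154052 held the same bases as TCONS_00012777 over this region, TCONS_00214529 is described separately, and TCONS_00121144 is named only.
TCONS_00164316 (complement): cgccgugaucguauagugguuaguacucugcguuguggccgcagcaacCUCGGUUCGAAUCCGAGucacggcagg
TCONS_00012778 (complement): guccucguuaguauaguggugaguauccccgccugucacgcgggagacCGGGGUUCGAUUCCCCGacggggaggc
TCONS_00226677 (complement): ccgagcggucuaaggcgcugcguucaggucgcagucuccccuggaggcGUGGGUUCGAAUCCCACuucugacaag
TCONS_00036264 (given strand): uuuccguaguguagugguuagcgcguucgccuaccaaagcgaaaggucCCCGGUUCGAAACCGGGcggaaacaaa
TCONS_00012777 (complement): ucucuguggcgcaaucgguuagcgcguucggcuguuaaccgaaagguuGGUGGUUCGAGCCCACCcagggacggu
TCONS_00057779 (complement): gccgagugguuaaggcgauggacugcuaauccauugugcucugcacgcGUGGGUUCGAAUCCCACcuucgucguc
TCONS_00196485 (given strand): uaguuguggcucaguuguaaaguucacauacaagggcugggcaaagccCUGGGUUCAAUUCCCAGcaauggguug
TCONS_00248769 (complement): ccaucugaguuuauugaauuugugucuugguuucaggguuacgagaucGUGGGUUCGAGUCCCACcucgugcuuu
The motif alone does not identify a tRNA, and no tRNA model was applied to these sequences. Of the 8 matches on the complement, 5 began between bases 46 and 55 of the complement, so they lay near the given 3′ end of the record. These 5 were in TCONS_00164316, TCONS_00226677, TCONS_00012777, TCONS_00121144 and TCONS_00057779. The complement match of TCONS_00214529 began at base 32, closer still to that end, and those of TCONS_00012778 and TCONS_00248769 began at bases 147 and 430. The ratio of observed to expected CpG was 0.144 in TCONS_00196485 and between 0.504 and 1.01 in the other 10 records, against a mean of 0.280 over all short records.

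**Figure D2:**
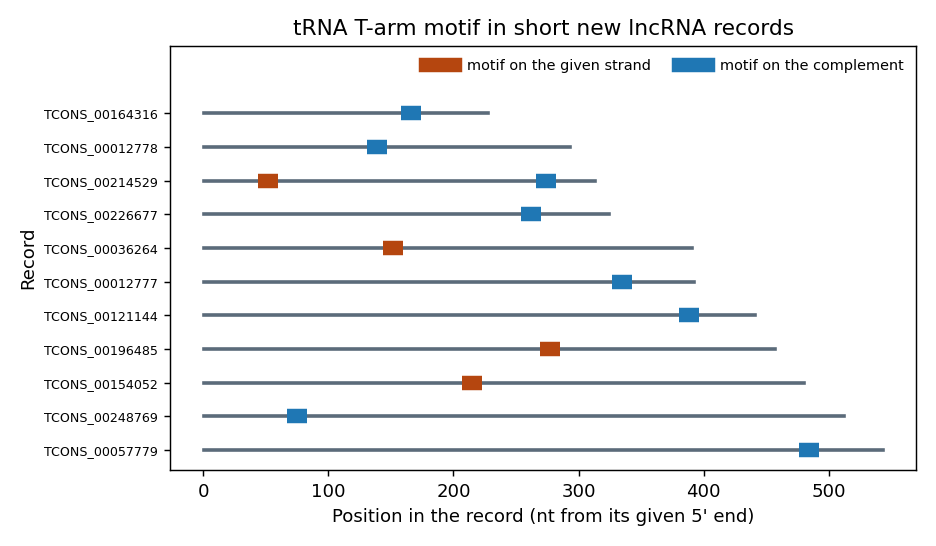
Position of the tRNA T-arm motif in the 11 short records that hold it, drawn to scale along each record from its given 5′ end (horizontal axis in nt, 1 record per row, ordered by length). Orange blocks mark the motif on the given strand and blue blocks on the complement, and TCONS_00214529 has both.

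For 4 of the 11 records an exact match to a RefSeq promoter window (GRCm38, the assembly also called mm10) overlapped an annotated tRNA gene. TCONS_00164316, of 228 nt, matched 66 bases at chr3:96452491-96452556, which overlap n-THgtg7, a histidine tRNA gene at chr3:96452495-96452566, inside the gene BC107364. TCONS_00036264, of 391 nt, matched 35 bases at chr13:23446142-23446176, within n-TVcac9, a valine tRNA gene at chr13:23446142-23446214. TCONS_00012777 and TCONS_00154052 both matched 47 bases at chr1:171033969-171034015, inside n-TNgtt6, an asparagine tRNA gene, and matched them on opposite strands. These last 2 records shared 77 bases. Genes of this kind exist in many near-identical copies, TCONS_00012777 and TCONS_00154052 each matched 2 windows, and the locus given is only that of the longest match.

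TCONS_00214529, of 313 nt, held the motif near both of its ends in opposite orientation, and these copies faced each other in the longest stem of all short records. The stem joined 34 consecutive base pairs between bases 35 to 68 and bases 258 to 291. Both arms are printed on the given strand, with the motif in capitals, which in the second arm reads as its complement.
TCONS_00214529 (5′ arm): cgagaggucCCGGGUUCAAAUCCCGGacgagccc
TCONS_00214529 (3′ arm): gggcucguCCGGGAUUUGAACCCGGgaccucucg
The deposited free energy of this record was -144.84 kcal/mol, or -46.3 kcal/mol per 100 nt, at a GC content of only 46.3%. No other short record had a stem of 20 pairs or more. Stems of 15 pairs or more occurred in 12 short records (2.65%) and in 667 of the longer ones (8.79%), and the median of the longest stem was 9 pairs against 11 pairs, where longer records have more room for a long stem.

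CpG dinucleotides were more frequent in the short records. The ratio of observed to expected CpG is 1 where the dinucleotide is as frequent as a random order of the same bases would give. It averaged 0.280 ± 0.248 (SD, n = 453) against 0.201 ± 0.118 (n = 7587), a difference of 0.0789 (0.0559 to 0.102). The median was 0.225 against 0.179 and the upper quartile 0.350 against 0.252, and the lower quartiles, 0.132 and 0.122, lay closer together. Ratios above 0.6 were found in 40 short records (8.83%) and in 98 longer records (1.29%), and ratios above 0.6 together with a GC content above 50% in 18 (3.97%) and 59 (0.778%). At the other end, 28 short records (6.18%) had no CpG at all, against 43 longer records (0.567%), so the spread of the ratio was wider in both directions. Short sequences give noisier ratios, and in the first 205 bases of every record, where length is equal, the mean ratio was 0.270 in short and 0.195 in longer records, and in the last 205 bases 0.286 and 0.200. Within the short records the mean ratio went from 0.496 in the class of 201 to 250 nt to 0.231 in the class of 501 to 550 nt, and the latter was close to the 0.243 of the records in the 50 nt beyond the limit.

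**Figure D3:**
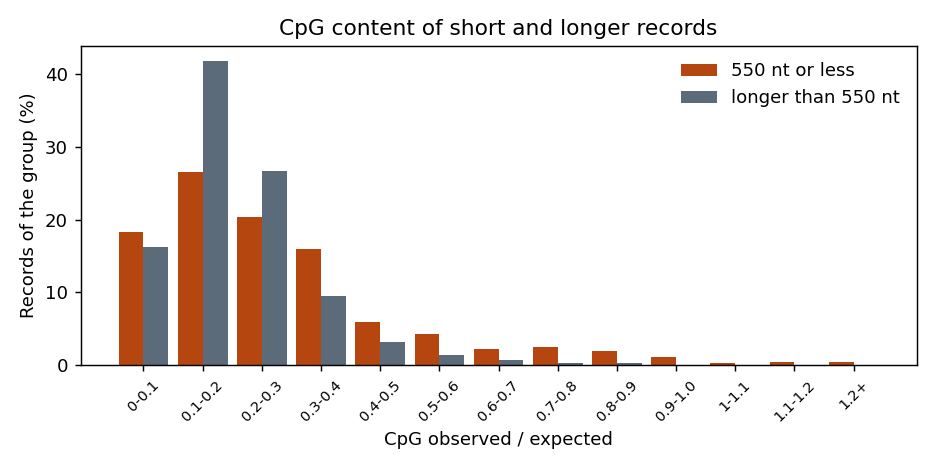
Share of records (vertical axis, percent of each group) by ratio of observed to expected CpG (horizontal axis, classes of 0.1, the last class open). Orange bars are the 453 short records and grey bars the 7587 longer ones, and every class from 0.3 upwards holds a larger share of the short records.

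Of the 40 CpG-rich short records, 11 shared 30 or more bases with a RefSeq promoter window, 7 carried the T-arm motif, some of them both, and 26 had neither. Among the 413 other short records, 33 matched a promoter window. The highest ratio, 2.56, belonged to TCONS_00243983, an AU-rich record of 306 nt with a GC content of 25.8%. Its composition was unlike that of the other short records, and its origin from the mouse genome was not checked here. Without it the mean ratio of the short records was 0.275 ± 0.224 (SD, n = 452), the difference from the longer ones was 0.0738 (0.0530 to 0.0946), and the mean of the class of 301 to 350 nt fell from 0.413 to 0.342. The highest GC content, 73.5%, was that of TCONS_00187550, of 385 nt, which held 36 CpG dinucleotides and had the strongest free energy per length of all short records, -55.6 kcal/mol per 100 nt. The lowest GC content was 25.5%, in TCONS_00208150, of 282 nt, which had no CpG.

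Promoter windows reach from 250 bases before to 50 bases after an annotated start. Exact matches of 30 or more bases to any of the 32851 windows were found in 44 short records (9.71%) and in 1445 longer ones (19.0%), a difference of -9.33 percentage points (-11.9 to -6.14). A longer sequence has more room for a match, and with equal stretches of 205 bases the shares were 5.52% and 5.13% at the given 5′ end and 5.08% and 4.73% at the given 3′ end. With 50 bases or more the shares of whole records were 3.75% (17 records) and 3.68% (279 records). Of the 44 short records, 24 matched more than 1 window and 7 matched 10 or more, as repeats do. The 13 records that matched a single window over 50 or more bases lay on the strand of the annotated gene in 5 cases and on the opposite strand in 8. Of these matches, 7 covered the annotated start that defines the window, which need not be the first base of the gene.

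The matches to protein-coding promoters with the longest exact stretch were those of Prrg3, Nyap1 and Nkrf, and their sequences are printed as they stand in the records, with CpG dinucleotides in capitals. Prrg3 encodes a membrane protein with a Gla domain, Nyap1 a neuronal adaptor of phosphoinositide 3-kinase, and Nkrf a repressor of NF-kappa-B target genes. TCONS_00251049, of 304 nt, matched a Prrg3 window over 207 bases, chrX:71962468-71962674 (GRCm38), on the strand of the gene and across the start that defines this window. The whole match lay within the annotated gene, chrX:71962164-71972722, past its first base, and the record matched 2 windows in all.
TCONS_00251049: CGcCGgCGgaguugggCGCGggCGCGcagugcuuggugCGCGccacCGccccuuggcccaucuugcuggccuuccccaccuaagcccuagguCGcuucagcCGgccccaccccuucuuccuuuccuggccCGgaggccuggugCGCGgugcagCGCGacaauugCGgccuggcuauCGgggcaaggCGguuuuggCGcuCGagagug
TCONS_00186472, of 386 nt, matched 195 bases of the Nyap1 window at chr5:137741224-137741418, on the opposite strand and from 250 to 56 bases before the start site.
TCONS_00186472: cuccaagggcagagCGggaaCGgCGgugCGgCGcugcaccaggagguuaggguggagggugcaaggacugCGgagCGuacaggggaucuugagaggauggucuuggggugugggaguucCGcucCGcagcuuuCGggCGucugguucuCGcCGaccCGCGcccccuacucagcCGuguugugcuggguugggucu
TCONS_00249815, of 421 nt, matched 195 bases of the Nkrf window at chrX:36903416-36903610, on the opposite strand and across the start site.
TCONS_00249815: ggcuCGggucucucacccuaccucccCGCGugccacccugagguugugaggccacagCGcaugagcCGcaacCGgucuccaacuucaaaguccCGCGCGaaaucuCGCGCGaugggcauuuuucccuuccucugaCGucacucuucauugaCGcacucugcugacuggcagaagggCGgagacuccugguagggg
The 3 records had GC contents of 73.0%, 69.4% and 58.2% and CpG ratios of 0.748, 0.744 and 0.759, all above the 0.6 that only 8.83% of the short records exceeded. No reading frame from AUG to a stop was present on either strand of TCONS_00251049.

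The other long matches differed in composition. TCONS_00070277, of 491 nt, contained the whole 300-base window of the lncRNA gene Gm33582, chr14:60176266-60176565, on the gene's strand, at a CpG ratio of 0.410. TCONS_00199094 matched 177 bases of the lncRNA gene Gm34755, at chr6:128798582-128798758, and 4 windows in all. TCONS_00096519 matched 138 bases of Gm33727, at chr17:25518497-25518634, on the gene's strand. TCONS_00133141 matched 121 bases of LOC115489542 on the opposite strand, with a CpG ratio of 0.0505. TCONS_00121167, the second shortest record, matched 119 bases of 5430402O13Rik on the opposite strand, within the gene of cytochrome c, Cycs, and had a CpG ratio of 1.14. TCONS_00243644 matched 116 bases upstream of Tmem218, at a CpG ratio of 0.505. TCONS_00025710 matched 91 bases upstream of Gpr6, which encodes an orphan G-protein-coupled receptor, at a CpG ratio of 0.387. CpG ratios in these 7 records thus ran from 0.0505 to 1.14, with no common value.

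The GC content of the short records averaged 42.9% ± 7.58 (SD, n = 453), against 41.8% ± 5.55 (n = 7587) in the longer ones. The difference was 1.07 percentage points (0.365 to 1.78). It was smaller, and its interval included 0, when the comparison was restricted to longer records of up to 1000 nt (0.545, -0.190 to 1.28). The spread was wider in short records. SDs in the length classes from 251 to 450 nt were between 7.99 and 9.90 percentage points. They were 6.80 in the 10 records of 201 to 250 nt, 7.27 at 451 to 500 nt and 5.76 at 501 to 550 nt. Shorter sequences give more variable GC contents, and no SD was computed in stretches of equal length.

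**Figure D4:**
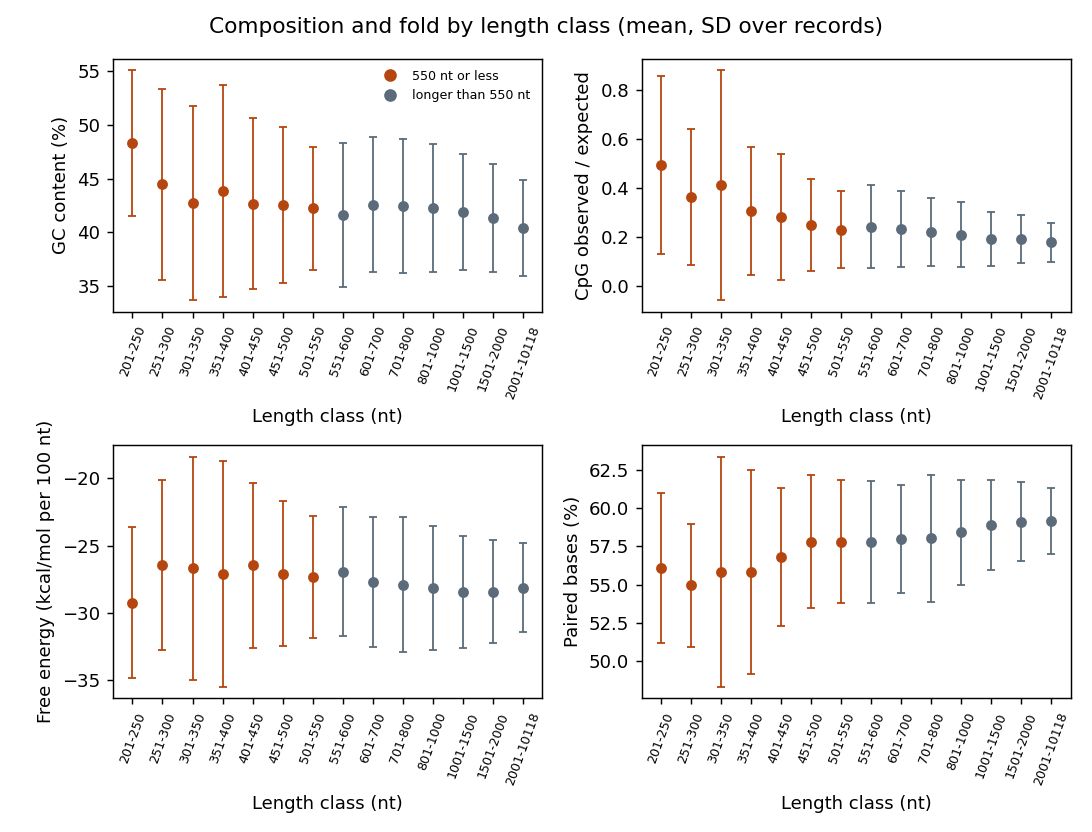
Mean (points) and SD over records (bars) of GC content, CpG observed over expected, free energy per 100 nt and percent of paired bases (vertical axes) by length class in nt (horizontal axes), orange for classes up to 550 nt and grey for longer records. The CpG ratio declines and pairing rises along the classes, while no measure jumps at the limit of 550 nt.

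Folding was weaker in the short records than their GC content would give in longer ones. The deposited free energy averaged -27.0 ± 5.99 kcal/mol per 100 nt (SD, n = 453) against -28.2 ± 4.26 (n = 7587). At equal GC content the short records were 1.94 kcal/mol per 100 nt (1.76 to 2.12) less stable, and 1.30 (1.09 to 1.52) less stable than longer records of up to 1000 nt. Across records the energy followed GC content with nearly the same slope in both groups, -0.693 and -0.695 kcal/mol per 100 nt for each percent of GC, with Pearson's r of -0.878 and -0.906 across records. GC content enters the computed energy directly, so these correlations are descriptions of the sequences. Fewer bases were paired, 57.1% ± 4.93 against 58.7% ± 3.13, a difference of -1.65 percentage points (-2.11 to -1.19). Hairpin loops were denser, 16.6 ± 3.10 against 15.2 ± 1.94 per 1000 nt, a difference of 1.39 (1.10 to 1.68), and each short record had between 3 and 14 hairpins with a median of 7. The deposited structure closed on a single outermost helix in 188 short records (41.5%) and in 2628 longer ones (34.6%), a difference of 6.86 percentage points (2.29 to 11.6). Among the longer records, too, the mean share of paired bases rose and hairpin density fell along the length classes. Energies and structures were not computed in stretches of equal length. Whether these folding differences go beyond the length used to choose the records was therefore not tested.

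**Figure D5:**
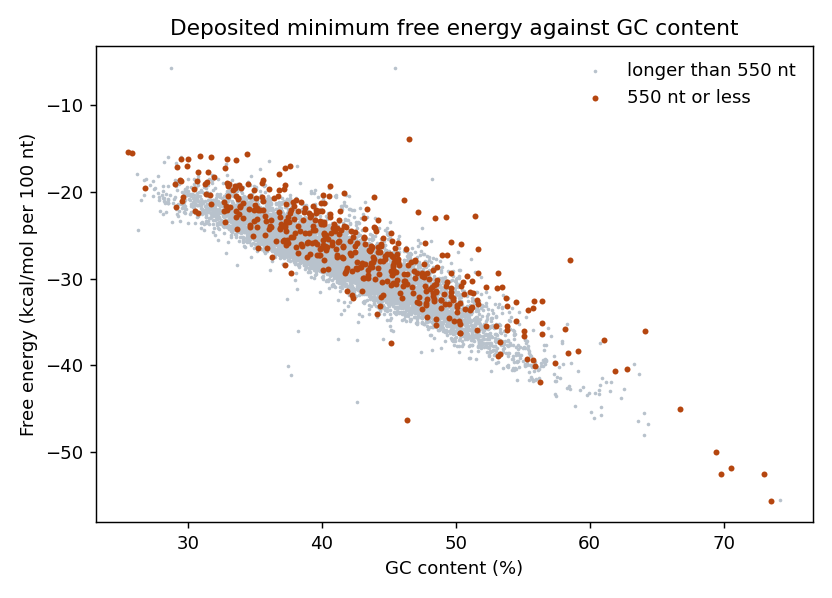
Deposited minimum free energy in kcal/mol per 100 nt (vertical axis, more negative is more stable) against GC content in percent (horizontal axis), 1 point per record, orange for the 453 short records and grey for the 7587 longer ones. Both groups follow lines of nearly the same slope (-0.693 and -0.695), and the short records lie on average 1.94 kcal/mol per 100 nt higher at equal GC content.

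The extremes of folding were records of unusual composition. TCONS_00046289, of 442 nt, had the highest share of paired bases, 69.7%, at a GC content of 70.6%. TCONS_00036204, of 374 nt, had the lowest share, 28.9%, and the weakest energy per length, -13.9 kcal/mol per 100 nt, although its GC content was 46.5%. Its central part is an AC repeat, and A and C do not pair with each other. It is printed from base 85 to base 232, with the bases that lie in 20-mers found in 10 or more records in capitals.
TCONS_00036204: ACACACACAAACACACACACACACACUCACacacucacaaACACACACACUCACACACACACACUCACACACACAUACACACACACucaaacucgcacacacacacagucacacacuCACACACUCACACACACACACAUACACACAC
On the complement this repeat reads as UG, and the complement held the exact mature sequence of miR-574-5p, a miRNA rich in UG. That match and the mature sequence of miR-690 in the complement of TCONS_00199094 were the only exact mature miRNAs in the short records, and both were picked out after their values were seen. No short record shared 30 or more bases with any of the 1005 RefSeq miRNA hairpins, on either strand, which covers exact matches to annotated hairpins only.

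TCONS_00243215 and TCONS_00212000 stood in the study's own list of leading new lncRNAs. Among the short records, whose length quartiles were 400 and 511 nt, the former lay below the lower quartile and the latter between the quartiles. TCONS_00243215, of 358 nt, had a GC content of 45.3%, 1 CpG and a free energy of -105.7 kcal/mol (-29.5 per 100 nt), with 57.0% of its bases paired and 8 hairpins. TCONS_00212000, of 443 nt, had a GC content of 53.0%, 9 CpG and a free energy of -137.9 kcal/mol (-31.1 per 100 nt), with 60.5% of its bases paired and 8 hairpins. Its GC content, energy per length and share of paired bases lay beyond the nearer quartiles of all short records, which were 47.6% for GC content, -30.5 kcal/mol per 100 nt for energy and 60.3% for paired bases. Neither shared 50 bases with another record, matched a promoter window or held a high-copy 20-mer. Their longest reading frames had 11 and 19 codons on the given strand. The longest stem of TCONS_00212000 spans 28 bases, printed here with its 8 paired bases on each side in capitals.
TCONS_00212000: GUGACGAGacugaagcucgaCUUGUCAU
In TCONS_00243215 the longest stem had 9 pairs and enclosed the bases from 119 to 207.

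Short records overlapped other records less often than long ones did. Of the 453, 91 (20.1%) shared 50 or more exact bases with another record on either strand, against 3044 longer records (40.1%), a difference of -20.0 percentage points (-23.6 to -15.9). In equal stretches of 205 bases the shares were 14.1% and 23.1% at the given 5′ end and 14.8% and 23.0% at the given 3′ end. The partner with the longest common stretch was a longer record in 67 cases and another short record in 24. It read in the same direction in 83 cases and on the complement in 8, and 65 of the 91 had a single partner. The stretch had a median of 275 bases and a maximum of 463, in TCONS_00230104. It reached the given 5′ end only in 38 records, the 3′ end only in 33 and neither end in 18. In 2 records, TCONS_00120947 (378 nt) and TCONS_00113322 (281 nt), the whole sequence lay within a longer record. TCONS_00086713, of 463 nt, had the most partners, 33, and the longest stretch it shared with any of them had 56 bases.

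Repeated sequence, interspersed or in tandem, was traced through 20-mers present in 10 or more records. They covered 0.984% ± 3.53 (SD, n = 453) of the bases of short records and 1.19% ± 2.45 (n = 7587) of longer ones, a difference of -0.211 percentage points whose interval included 0 (-0.541 to 0.118). In equal stretches of 205 bases the shares were 1.02% and 1.57% at the given 5′ end, a difference of -0.552 (-0.9995 to -0.104), and 0.779% and 1.32% at the given 3′ end, a difference of -0.541 (-0.922 to -0.159). Any such 20-mer was present in 49 short records (10.8%) and in 2400 longer ones (31.6%), which have more room for one. Such 20-mers covered over 10% of the bases in 16 (3.53%) and 99 (1.30%). A repeat of a given size takes up a larger share of a shorter record, and this count was not made in equal stretches. TCONS_00186491, the fourth shortest record, had the highest coverage, 38.5%, and is printed whole with those bases in capitals.
TCONS_00186491: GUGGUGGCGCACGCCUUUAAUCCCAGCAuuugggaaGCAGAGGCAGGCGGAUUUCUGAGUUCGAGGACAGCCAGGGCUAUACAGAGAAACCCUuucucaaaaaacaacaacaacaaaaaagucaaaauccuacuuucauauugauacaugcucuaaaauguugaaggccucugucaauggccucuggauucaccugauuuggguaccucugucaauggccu
The covered bases form the start of the record, apart from a short gap, and the rest of it held no 20-mer of that kind. Its free energy was -62.1 kcal/mol, and its longest stem had only 6 pairs.

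From AUG to a stop the longest frame had a median of 32 codons in short records and 53 in longer ones. It took up 23.3% and 14.3% of the length on average, a difference of 8.98 percentage points (8.02 to 9.94) that follows the length used to choose the records and is no finding. In equal stretches of 205 bases the longest frame covered 27.3% in short and 28.9% in longer records at the given 5′ end, a difference of -1.60 (-3.36 to 0.167), and 27.1% and 28.3% at the given 3′ end, a difference of -1.22 (-3.06 to 0.611). No record of either group had a frame of 100 codons or more on the given strand, the longest being 97 in short and 99 in longer records. The study called new transcripts lncRNAs only if they lacked coding potential. Whether that choice limited frames on the given strand, and so the comparison of strands below, was not tested. On the complement the medians were 34 and 57 codons, and frames reached 132 and 330 codons. Frames of 100 codons or more were present on the complement of 8 short records (1.77%) and 592 longer ones (7.80%). The longest frame covered more than 50% of the complement in 34 short records (7.51%) and 31 longer ones (0.409%). It covered more than 50% of the given strand in 8 (1.77%) and 1 (0.0132%). These shares, too, follow the length used to choose the records. The longest frame of the given strand, in TCONS_00214174 (466 nt), covers 63.1% of the record and is printed with its first and last codon in capitals.
TCONS_00214174: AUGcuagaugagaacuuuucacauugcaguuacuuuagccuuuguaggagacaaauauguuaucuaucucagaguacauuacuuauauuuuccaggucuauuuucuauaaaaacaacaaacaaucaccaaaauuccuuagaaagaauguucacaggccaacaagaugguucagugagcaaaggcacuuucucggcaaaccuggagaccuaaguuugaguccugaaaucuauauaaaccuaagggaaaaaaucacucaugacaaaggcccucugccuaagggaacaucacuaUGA
On the complement, TCONS_00109279 (439 nt) and TCONS_00081707 (481 nt) each had a frame of 132 codons, which covered 90.9% and 83.0% of the record. TCONS_00179408, the fifth shortest, had 1 codon on the given strand and 59 on the complement, which covered 80.7% of its 223 nt. The frame was longer on the complement in 245 short records (54.1%) and on the given strand in 203 (44.8%), against 57.0% and 40.8% of the longer ones.

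The poly(A) signal AAUAAA, which directs cleavage and polyadenylation of most mRNAs, stood in the last 50 bases of 26 short records (5.74%) and of 287 longer ones (3.78%), a difference of 1.96 percentage points (0.107 to 4.53). In the last 50 bases of the complement it was found in 13 (2.87%) and 278 (3.66%), a difference of -0.794 (-2.06 to 1.22). The excess on the given strand therefore rested on few records, and it was smaller, with an interval that included 0, under 4 of the other settings tried.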

How the data were processed

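Total RNA of mouse cortex was sequenced in 6 libraries, 3 control and 3 SAH, and the authors deposited, for the transcripts they assembled as new lncRNAs, a text of sequences with predicted folds. Per the labels, reads were aligned with TopHat2 to mm10, and a cDNA strand was marked with deoxy-UTP. Whether the assembly used that strand is not given in the sources used here, so each record is described as given and as its complement. The deposited values are free energies in kcal/mol, pooled over all libraries, with no count and no depth per library, and only counting error or the spread over records could be given as precision.

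For each of 8040 records, base composition, pairs, reading frames and shared stretches were computed with Python 3.11.15, numpy 2.4.6 and scipy 1.17.1, and figures were drawn with matplotlib 3.10.9. ViennaRNA 2.7.2 with the Turner 1999 parameters and dangling-end setting 1 gave back every deposited energy (8040 of 8040, tolerance 0.01 kcal/mol) and the structures of 447 of the 453 short records. High-copy bases lay in 20-mers found in 10 or more records. Promoter windows, tRNA genes and miRNAs were those of RefSeq (GRCm38.p6). Mean differences carry normal intervals and shares Wilson or Newcombe intervals, all at 95%. The energy difference was fitted with GC content as a covariate. No p-values were computed, because records are not replicates. The code was tested on simulated records with planted features.

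Records named are the 5 shortest, the 2 in the study's list, the highest or lowest of each property, those at the limit, and the 10 longest promoter matches. Records with a T-arm, those overlapping tRNA genes, those wholly contained in another and those with a mature miRNA were picked once their values had been seen. The members and lists were chosen with earlier results of these data known. Alternatives changed the limit, the comparison records, the grouping of overlapping records and each threshold.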

Additional observations from a re-analysis of the deposited data

How the results depend on the processing

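Differences in CpG ratio, free energy, paired bases, hairpin density, outermost helices and shared stretches kept their direction, and intervals that excluded 0, under all alternatives tried for them. For free energy, paired bases, hairpin density and outermost helices no alternative used stretches of equal length. Longer records were not refolded with other parameters. These alternatives therefore could not set aside the length used to choose the records. The GC difference of 1.07 percentage points had an interval including 0 against longer records of up to 1000 nt (0.545) and, in settings added after the data were seen, in the first 205 bases (0.755) and the last 205 bases (0.807). The difference in high-copy bases (-0.211) changed sign with 1 record per overlapping group (0.00244), and excluded 0 in the first (-0.552) and last (-0.541) 205 bases. The excess of poly(A) signals (1.96) had an interval including 0 with limits of 500 nt (1.22) and 600 nt (1.26), with 1 record per group (1.04) and with AUUAAA also allowed (0.787), and changed sign on the complement (-0.794). The lower share of promoter matches (-9.33) changed sign with 50 bases (0.0754) and in the first (0.392) and last (0.345) 205 bases, and these stretches give long records no more room than short ones. The percent of length in the longest reading frame, which depends on the length limit itself (8.98 on the given strand, 10.8 on the complement), changed sign in the first and last 205 bases, to -1.60 and -1.22 on the given strand and -1.45 and -1.35 on the complement. The T-arm excess (1.76) was negative for GUUCAANUC alone (-2.58) and stayed positive in the other 7 settings. The value for GUUCAANUC compares shares of whole records, and longer records have more room for it. The causes were not tested unless stated. Limits of 500 and 600 nt gave 316 and 613 records.

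No paired analysis was possible because the deposited records are pooled over the libraries and hold no value for any of them, so leaving out a replicate was not possible either.

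Refolding the short records with the program's default settings, which hold later Turner parameters and another rule for dangling ends, gave -25.5 ± 6.07 kcal/mol per 100 nt and 58.3% ± 5.24 paired bases, and a median of 58.1% of the deposited pairs recurred (quartiles 41.3% and 75.5%). Single pairs and stems are therefore predictions that depend on the parameters. Read depth, which would limit how complete each record is, is unknown.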
